A study of Mus musculus with 34 samples.

Results

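Polyamine metabolism was described through 10 genes, Amd1, Amd2, Odc1, Srm, Sms, Smox, Sat1, Oaz1, Oaz2 and Azin1. They were taken by Ensembl identifier from the 46071 gene rows of the deposited count table, and all 10 were among the 13646 genes with enough counts to be tested. RNA was sequenced from quadriceps and gastrocnemius of male mice, which had been powdered and mixed, in 34 libraries. The genes were chosen by name as one pathway, with the measured differences between genotypes in these libraries already known, so their changes are given as a description, and the adjusted p-values, which come from a fit across all tested genes, are no independent evidence that this pathway changed.

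Mice labelled MIRKO (n = 4) lacked the insulin receptor (IR, gene Insr) in muscle, those labelled MIGF1RKO (n = 5) the IGF-1 receptor (IGF1R), and those labelled MIGIRKO (n = 6) both receptors. In QKO mice (n = 7), FoxO1, FoxO3 and FoxO4, transcription factors that insulin signalling holds in check, were deleted in addition to both receptors. Acta1-Cre, in which the skeletal actin promoter drives the recombinase, is the driver named for MIRKO, MIGIRKO and QKO. The deletion is thus aimed at muscle fibers, and the other cells of the muscle keep the genes. Each line was kept as its own colony, with floxed littermates as controls, which are, in the order of the knockouts above, IRlox (3 libraries), IGFRlox (4 libraries), IRIGFRlox (3 libraries) and Qlox (2 libraries). All lines were of mixed C57Blk6, C57Blk6J and 129 background. The study reports that MIGIRKO and IRIGFRlox mice were heterozygous for Nnt and that MIRKO, IRlox, QKO and Qlox mice held both homozygous and heterozygous animals. Ages are not given in the sources used here.

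Polyamines (putrescine, spermidine and spermine) are small positively charged molecules that bind RNA, DNA and ion channels and that growing cells make in large amounts. Ornithine decarboxylase (Odc1) makes putrescine, and S-adenosylmethionine decarboxylase (Amd1, Amd2) makes the aminopropyl donor that spermidine synthase (Srm) and spermine synthase (Sms) add to it. Spermine oxidase (Smox) and spermidine/spermine acetyltransferase (Sat1) take polyamines apart, antizymes (Oaz1, Oaz2) send ornithine decarboxylase to the proteasome, and the antizyme inhibitor (Azin1) binds antizyme and spares the enzyme. In muscle the pathway is known to respond to exercise and to wasting.

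The sequences of Amd1 and Amd2 are shown because their counts cannot be fully told apart. Amd1 (ENSMUSG00000075232, GRCm38 chromosome 10, 40287458 to 40302186, minus strand) has 8 exons, and Amd2 (ENSMUSG00000063953, chromosome 10, 35708675 to 35711892, minus strand) has 1 exon. Their coding sequences of 1002 nucleotides differ at 1 position, G796C, counted from 1 at the first base of the coding sequence, with the Amd1 base first. Below are the 31 coding bases around it, with the differing base in capitals, from chr10:40290171-40290201 for Amd1 and chr10:35710749-35710779 for Amd2, both on the minus strand.
Amd1: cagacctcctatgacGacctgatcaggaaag
Amd2: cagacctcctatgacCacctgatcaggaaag

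Of the 50-base windows of the Amd1 transcript, 86.1% occur unchanged in Amd2, and 94.8% of the windows of its coding sequence do. Amd2 held 2.18% to 6.57% of the Amd1 count over the 34 libraries, with a median of 3.60%. How the counting treated reads that match both genes is not given in the sources used here, so each Amd2 value is uncertain. Upstream the genes are unlike each other, as the 250 bases before each start show (RefSeq, GRCm38.p6, minus strand, chr10:40302189-40302438 for Amd1 and chr10:35711892-35712141 for Amd2). A GC box is in capitals.
Amd1: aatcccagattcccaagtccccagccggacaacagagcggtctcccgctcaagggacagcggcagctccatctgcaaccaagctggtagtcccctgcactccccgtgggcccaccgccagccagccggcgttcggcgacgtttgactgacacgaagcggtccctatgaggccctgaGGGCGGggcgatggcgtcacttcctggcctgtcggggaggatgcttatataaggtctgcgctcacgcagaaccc
Amd2: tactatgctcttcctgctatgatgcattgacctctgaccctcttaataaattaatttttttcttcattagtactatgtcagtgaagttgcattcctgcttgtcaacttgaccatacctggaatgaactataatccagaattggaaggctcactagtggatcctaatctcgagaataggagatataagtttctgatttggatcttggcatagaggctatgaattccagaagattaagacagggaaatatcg

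The Amd1 stretch is 64.4% G and C, and the Amd2 stretch 37.6%. Around the starts, only windows from 250 bases before to 50 bases after each start were compared. The longest run shared there is 48 bases. It begins at base 3 of Amd1 and base 1 of Amd2, counted from 1 at the start. The run reaches the end of the Amd1 window, so its full length was not measured. Upstream sequences were at hand for 8 of the 10 genes, 9 sequences in all, and 4 motifs were searched on both strands. GTAAACA, the core that FoxO factors bind, was in 0 of the 9 (3.166% of 32851 promoters of the same length), and the E-box CACGTG was in 1, upstream of Sms (6.021% of promoters). TATAAA was in 0 (12.368%), and the GC box GGGCGG was in 6 (32.742%). These matches describe the letters of these windows only.

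Total counts per library ran from 1499025 (QKO 5) to 7581198 (IRIGFRlox 1), and the deleted genes were first checked in the counts. Insr stood at 40.7 to 69.8 CPM (counts scaled to library size) in MIGIRKO and at 159 to 191 in IRIGFRlox. It was 42.5 to 50.7 CPM in MIRKO and 146 to 172 in IRlox, whereas QKO held 27.8 to 46.1 and Qlox 141 to 163. Igf1r counts over the whole gene did not show the deletion in MIGIRKO (log2 change 0.00 ± 0.21 SE, edgeR adjusted p = 0.99). They ran from 7.57 to 11.2 CPM in MIGF1RKO beside 13.5 to 20.4 in IGFRlox (-0.75 ± 0.21, adjusted p = 0.10), and from 4.01 to 11.9 in QKO beside 16.7 to 18.6 in Qlox (-1.09 ± 0.25, adjusted p = 0.027). Foxo1 was 12.6 to 28.3 CPM in QKO beside 132 to 148 in Qlox, and Foxo4 5.08 to 10.2 beside 144 to 160. Foxo3 counts did not show the deletion, at 93.1 to 136 CPM beside 79.7 to 103 (0.29 ± 0.27, adjusted p = 0.71). For MIGIRKO the Igf1r loss, and for QKO the Foxo3 loss, thus rest on the labels. Some libraries were closest to one of another genotype. Over all tested genes, MIRKO 4 was closest to MIGIRKO 3 (r = 0.981), and MIGIRKO 6 was closest to MIRKO 3 (r = 0.973). MIRKO 1 and MIRKO 3 were closest to MIGIRKO 6, and MIRKO 2 to MIGF1RKO 4. MIGIRKO 1 and MIGIRKO 3 were closest to MIRKO 4, QKO 5 to Qlox 2 and QKO 6 to MIGIRKO 6. The closest library belonged to the same group for 20 of the 34. This measure alone does not single out MIRKO 4 and MIGIRKO 6. The main changes in MIRKO and MIGIRKO are also given without MIRKO 4 and MIGIRKO 6, which lowers the genes called in MIRKO from 170 to 33.

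In the floxed controls, Amd1 was the highest of the polyamine transcripts per length, at 196 ± 58.2 CPM per kilobase of exon (SD, n = 12). Smox followed at 94.6 ± 16.2, Odc1 at 45.6 ± 7.41, Oaz2 at 39.6 ± 8.37 and Oaz1 at 28.7 ± 6.81 CPM per kilobase. The levels of Sms (19.3 ± 2.78), Azin1 (11.6 ± 2.96), Sat1 (8.33 ± 1.50), Amd2 (7.90 ± 2.13) and Srm (2.79 ± 0.99) were lower. In this order, only Smox and Odc1, and Amd2 and Srm, had ranges over the 12 libraries that did not overlap with their neighbour. Across the 4 floxed groups, 0 of the 10 genes differed by the edgeR test (0.264% of all tested genes did), and 0 had an unadjusted p under 0.05.

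**Figure D1:**
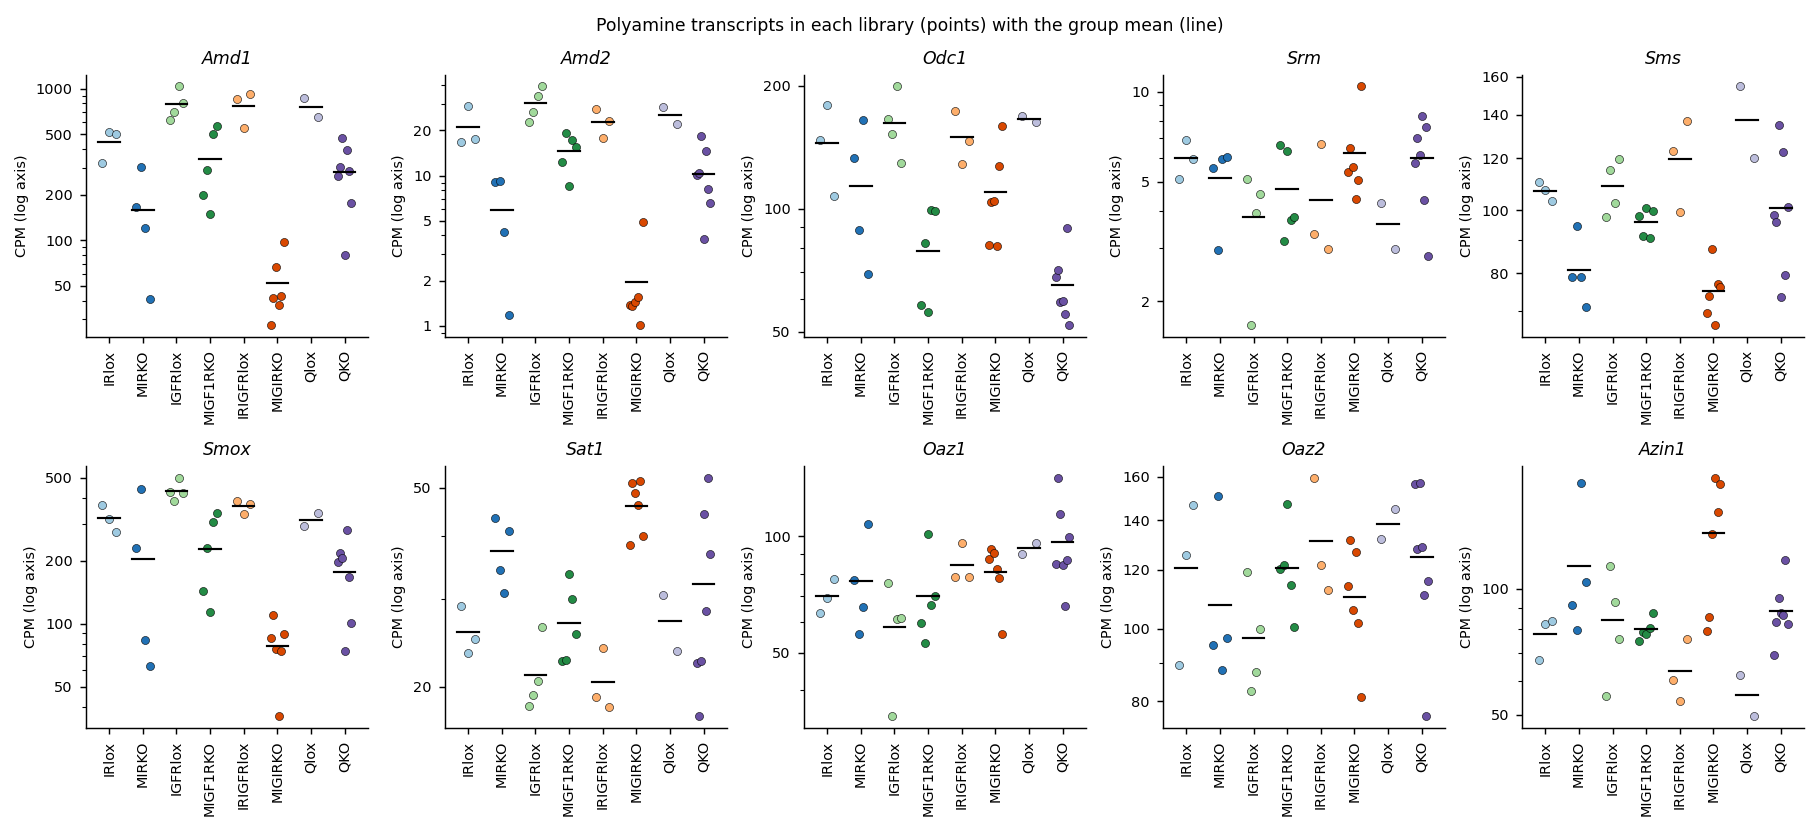
CPM of each polyamine gene (log axis) in the 34 libraries, 1 point per library, with the group mean as a line. The 6 MIGIRKO libraries of Amd1 lie between 27.6 and 96.8 CPM, below all 12 floxed libraries, while those of Sat1 lie above all 12.

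Loss of both receptors gave the most changes. In MIGIRKO against IRIGFRlox, 4 of the 10 genes fell (Amd1, Amd2, Smox and Sms) and 2 rose (Sat1 and Azin1), where 33.7% of all tested genes were called, 17.0% as higher and 16.7% as lower. These 6 also had groups that did not overlap in CPM, as did 29.9% of all tested genes. The median log2 change of the 10 was -0.35, beside 0.04 over all tested genes. In each of the other 3 knockouts 1 of the 10 was called, namely Amd2 in MIRKO (1.25% of all genes called) and Odc1 in MIGF1RKO (0.616%) and in QKO (0.506%). In bulk RNA of this kind, fewer cells of a type and less RNA per cell cannot be told apart.

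**Figure D2:**
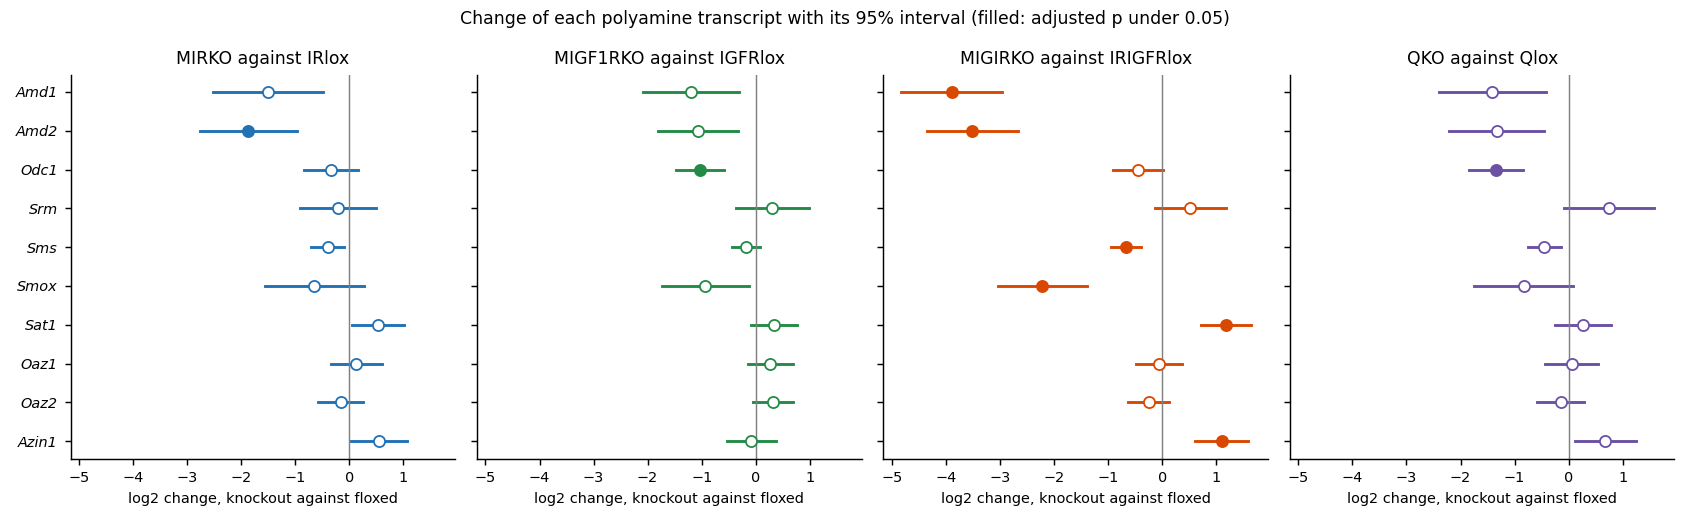
Log2 change of each polyamine gene in the 4 knockouts against their own floxed controls, with 95% intervals, where a filled point has an edgeR adjusted p under 0.05. Amd1 lies at -3.89 in MIGIRKO and between -1.20 and -1.51 in the other 3 knockouts.

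Amd1, which supplies the aminopropyl groups, was at 857, 546 and 920 CPM in the IRIGFRlox libraries, and at 27.6 at the lowest, 42.0 at the median and 96.8 at the highest in MIGIRKO. Every MIGIRKO library was far below every control, and MIGIRKO 6 was the highest of them. The level was 14.9-fold lower (log2 change -3.89 ± 0.48, edgeR adjusted p = 1.3e-06), and -4.17 ± 0.45 without MIRKO 4 and MIGIRKO 6 (adjusted p = 7.7e-08). Amd2 fell with it, by 3.51 ± 0.43 on the log2 scale (adjusted p = 7.5e-07), from 17.8 to 27.6 CPM in IRIGFRlox to 1.01 to 4.93 in MIGIRKO, on 6 to 36 counts per MIGIRKO library. The Amd2 share of the Amd1 count was 2.18% to 5.09% in MIGIRKO and 2.51% to 3.26% in IRIGFRlox.

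In MIRKO, Amd1 stood at 165, 303, 120 and 41.2 CPM, beside 322, 519 and 503 in IRlox. All 4 knockout libraries were below all 3 controls, and MIRKO 4 was at the level of the MIGIRKO libraries. The log2 change of -1.51 ± 0.52 was not called (edgeR adjusted p = 0.14), and it was -1.19 ± 0.49 without MIRKO 4 and MIGIRKO 6 (adjusted p = 0.28). Without MIRKO 2, the highest library of its group, Amd1 was called (-2.05, adjusted p = 0.040). Amd2, at 9.02, 9.26, 4.24 and 1.19 CPM in MIRKO and 16.7, 29.2 and 17.4 in IRlox, was called (-1.87 ± 0.46, adjusted p = 0.035). That call was lost without any 1 of the IRlox libraries (adjusted p = 0.077, 0.18 and 0.078), without MIRKO 3 (0.10) and without MIRKO 4 (0.17), in edgeR fits of the same kind. It was also lost with runs of library numbers as a block (-2.01, adjusted p = 0.074), with no filter on low counts (0.091) and with the 2 compared groups fitted alone (0.16). Without MIRKO 4 and MIGIRKO 6 together, Amd2 changed by -1.50 ± 0.36 in MIRKO (adjusted p = 0.071).

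In MIGF1RKO, Amd1 was at 198, 293, 150, 505 and 571 CPM, and in IGFRlox at 621, 699, 1034 and 799. The groups did not overlap, yet the knockout libraries spread over a wide range, and the change of -1.20 ± 0.46 was not called (edgeR adjusted p = 0.29). In QKO, Amd1 was at 80.5 at the lowest, 288 at the median and 472 at the highest, and at 864 and 646 in Qlox. Again no knockout library reached a control, and the change of -1.41 ± 0.51 was not called (adjusted p = 0.27). Amd2 changed by -1.06 ± 0.38 in MIGF1RKO (adjusted p = 0.24) and by -1.33 ± 0.45 in QKO (adjusted p = 0.23). Groups that do not overlap were seen for 4 of the 10 genes in MIRKO (16.1% of all tested genes), for 4 in MIGF1RKO (5.14%) and for 5 in QKO (9.77%).

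Odc1, the putrescine-making enzyme, had another order of groups. In QKO it was at 51.9 CPM at the lowest, 59.4 at the median and 89.8 at the highest, and the Qlox libraries held 169 and 163. The groups were well apart, and the level was 2.54-fold lower (log2 change -1.35 ± 0.25, edgeR adjusted p = 0.0037). With either Qlox library left out, the change was -1.32 (adjusted p = 0.14, without Qlox 1) or -1.37 (adjusted p = 0.098, without Qlox 2), so the call of Odc1 in QKO rests on having both controls. In MIGF1RKO, Odc1 was at 58.2, 82.6, 55.7, 99.2 and 98.5 CPM, and in IGFRlox at 166, 152, 199 and 129. These groups did not overlap either (2.05-fold lower, log2 change -1.04 ± 0.22, adjusted p = 0.022). The Odc1 call in MIGF1RKO was lost without MIGF1RKO 1 (adjusted p = 0.084), MIGF1RKO 3 (0.093), IGFRlox 2 (0.050) or IGFRlox 3 (0.079), and with library totals unscaled (-0.96, adjusted p = 0.059).

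In MIGIRKO, where Amd1 was lowest, Odc1 ran from 81.1 through a median of 104 to 159 CPM, beside 174, 129 and 146 in IRIGFRlox. MIGIRKO 6, the highest, lay inside the range of the controls, and the change of -0.45 ± 0.23 was not called (edgeR adjusted p = 0.13). Without MIGIRKO 6, the Odc1 change was -0.58 and was called (adjusted p = 0.047). In MIRKO, Odc1 changed by -0.35 ± 0.25 (adjusted p = 0.50). By mean CPM, Odc1 was lowest in QKO (64.9 ± 12.8, SD), followed by MIGF1RKO (78.8 ± 21.1), MIGIRKO (110 ± 29.8) and MIRKO (114 ± 43.3). Each of these neighbours overlapped in range with the next.

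Of the synthases, Sms fell in MIGIRKO. It was at 123, 99.3 and 137 CPM in IRIGFRlox and at 66.7 at the lowest, 75.2 at the median and 87.1 at the highest in MIGIRKO. The groups did not overlap, and Sms was 1.59-fold lower (log2 change -0.67 ± 0.14, edgeR adjusted p = 4.5e-04). When library totals were used with no scaling factor, the Sms change was -0.18 (adjusted p = 0.24). That scaling moved the median of all tested genes to 0.53 in MIGIRKO, so Sms still lay below the median gene. In the other knockouts Sms changed by -0.40 ± 0.15 (MIRKO, adjusted p = 0.18), -0.18 ± 0.14 (MIGF1RKO, adjusted p = 0.73) and -0.45 ± 0.16 (QKO, adjusted p = 0.26). Srm, the spermidine synthase, was low throughout, between 1.66 and 10.4 CPM in any library, and 0 of the 4 knockouts gave a call. Its change in MIGIRKO was 0.52 ± 0.33 (adjusted p = 0.23), and 1.01 (adjusted p = 0.018) with library totals.

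Smox, which turns spermine back into spermidine, had the largest fall in MIGIRKO after Amd1 and Amd2. It was at 386, 334 and 375 CPM in IRIGFRlox and at 36.0 at the lowest, 80.7 at the median and 110 at the highest in MIGIRKO. No MIGIRKO library came near a control, and the level was 4.65-fold lower (log2 change -2.22 ± 0.42, edgeR adjusted p = 2.1e-04). Without MIRKO 4 and MIGIRKO 6, the Smox change was -2.26 ± 0.41. In MIRKO, Smox was at 230, 444, 83.5 and 63.0 CPM, a wider range than in any control group, and IRlox held 370, 317 and 274. MIRKO 2 was above all of these controls and the other 3 libraries were below, so the groups overlapped (-0.65 ± 0.47, adjusted p = 0.49). Smox was 113 to 339 CPM in MIGF1RKO and 388 to 500 in IGFRlox (-0.94 ± 0.41, adjusted p = 0.40), while QKO held 73.7 to 280 and Qlox 293 to 338 (-0.83 ± 0.47, adjusted p = 0.50).

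Sat1, which acetylates spermidine and spermine for export or breakdown, rose in MIGIRKO. It was at 19.1, 23.9 and 18.2 CPM in IRIGFRlox and at 38.4 at the lowest, 47.6 at the median and 51.6 at the highest in MIGIRKO. The MIGIRKO libraries lay close together and all above the controls (2.26-fold higher, log2 change 1.17 ± 0.23, edgeR adjusted p = 3.0e-04). In MIRKO, Sat1 was at 43.5, 34.3, 30.8 and 40.9 CPM beside 29.1, 23.4 and 24.9 in IRlox, also without overlap, and the change of 0.53 ± 0.25 was not called (adjusted p = 0.26). In QKO it ranged from 17.5 to 52.4 CPM around the Qlox values of 30.5 and 23.6 (0.26 ± 0.27, adjusted p = 0.74). The change in MIGF1RKO was 0.34 ± 0.22 (adjusted p = 0.66).

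Azin1, the antizyme inhibitor, also rose in MIGIRKO. It was at 60.6, 54.0 and 75.7 CPM in IRIGFRlox and at 79.3, 85.7, 135, 184, 153 and 178 in MIGIRKO 1 to 6. All 6 lay above the controls, with MIGIRKO 1 and 2 close to them (2.14-fold higher, log2 change 1.10 ± 0.25, edgeR adjusted p = 0.0011). Azin1 changed by 0.55 ± 0.26 in MIRKO (adjusted p = 0.27), by -0.08 ± 0.23 in MIGF1RKO (adjusted p = 0.96) and by 0.67 ± 0.29 in QKO (adjusted p = 0.37). Without MIRKO 4 and MIGIRKO 6, the MIGIRKO changes were 1.01 for Azin1, 1.21 for Sat1 and -0.68 for Sms, and the calls held. The antizymes themselves were called in 0 of the 4 knockouts. In MIGIRKO, Oaz1 changed by -0.06 ± 0.22 (95% interval -0.48 to 0.37) and Oaz2 by -0.25 ± 0.19 (-0.63 to 0.12). Oaz1 was 55.7 to 92.4 CPM in MIGIRKO and 78.3 to 96.2 in IRIGFRlox, and Oaz2 80.9 to 131 and 113 to 160. Their processed pseudogenes held at most 59 (Oaz1-ps) and 31 (Oaz2-ps) counts in a library.

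The library numbers in the titles fall into 6 runs of close, mostly consecutive numbers, split where the gap between numbers is wide. The labels do not say what a run is. In the 3 runs that hold both a MIGIRKO and an IRIGFRlox library, MIGIRKO was lower in all 3 for Amd1 (log2 difference -4.96 to -3.25), Smox (-2.17 to -1.60) and Sms (-0.84 to -0.42). It was higher in all 3 for Sat1 (1.01 to 1.14) and Azin1 (0.39 to 1.23). Odc1 was lower in all 3 runs shared by MIGF1RKO and IGFRlox (-1.51 to -0.62) and in both runs shared by QKO and Qlox (-1.61 to -0.86). Only 1 run held both MIRKO and IRlox, and there Amd1 differed by -1.65.

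**Figure D3:**
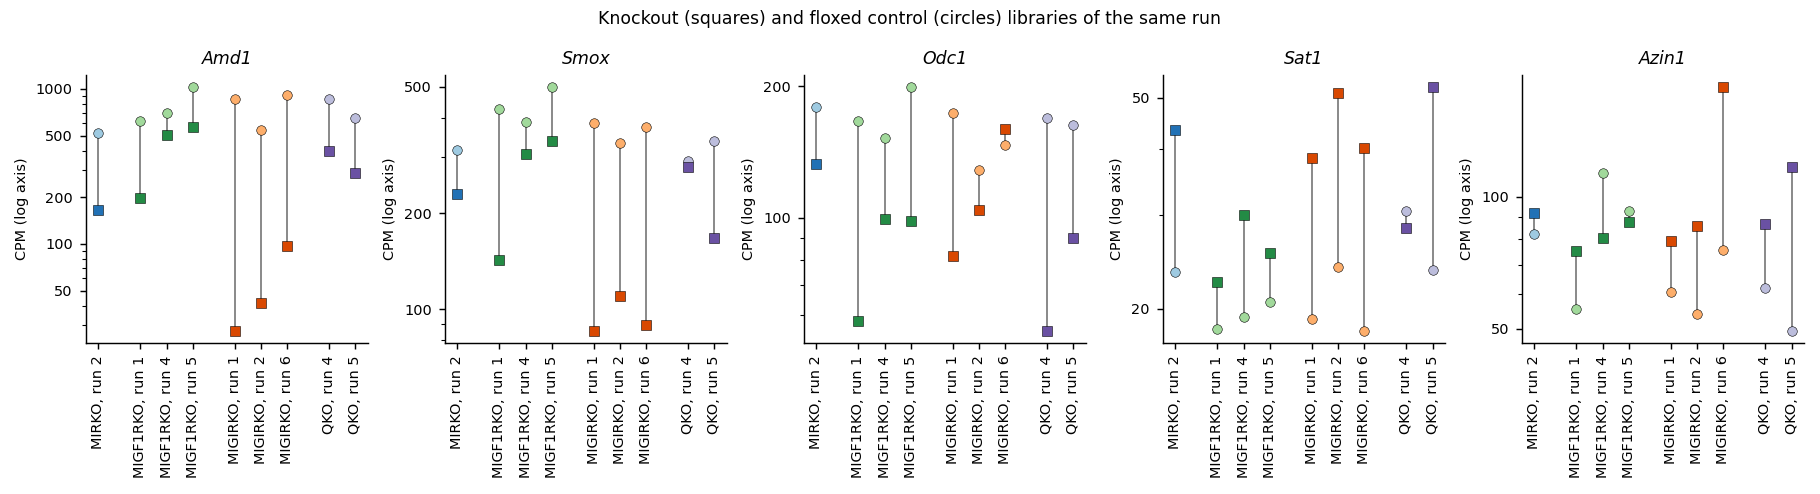
CPM (log axis) of 5 polyamine genes in knockout (square) and floxed (circle) libraries whose numbers fall in the same run, joined by a line. The Amd1 line falls in each of the 9 pairs, whereas Odc1 in MIGIRKO falls in 2 of 3 pairs.

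Changes were then compared between genotypes. QKO was set against MIGIRKO first. Its Amd1 change was 2.48 ± 0.77 above that of MIGIRKO, a difference that was not called (edgeR adjusted p = 0.053), and Amd2 was the 1 gene of the 10 that was called (2.18 ± 0.66, adjusted p = 0.046, 5.76% of all tested genes called). Both sat at the threshold. Leaving out MIGIRKO 6 (2.76, adjusted p = 0.023), QKO 4 (2.67, 0.024), QKO 6 (2.48, 0.047) or QKO 7 (2.57, 0.049) made the Amd1 difference a call. Without MIRKO 4 and MIGIRKO 6 both genes were called (Amd1 2.76 ± 0.68, adjusted p = 0.0091, and Amd2 2.71 ± 0.51, adjusted p = 7.0e-04). Leaving out any 1 of 14 of the 18 libraries of these 4 groups ended the Amd2 call, with an adjusted p of up to 0.25 (without Qlox 2). The difference in Odc1 had the other sign and was not called (-0.90 ± 0.35, adjusted p = 0.13), and Sat1 differed by -0.91 ± 0.34 (adjusted p = 0.11), called without QKO 6 (-1.09, adjusted p = 0.022). Markers moved with this comparison: 6 of 7 Schwann cell and 5 of 7 adipocyte markers had a lower change in QKO than in MIGIRKO, and 3 of 8 muscle fiber markers a higher one. Summed Schwann cell markers were at 184 to 286 CPM in IRIGFRlox and at 440 to 702 in Qlox, so the 2 controls differed. The part of the markers in these differences was not tested.

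The MIGIRKO change exceeded the MIGF1RKO change for Amd1 (-2.69 ± 0.67, edgeR adjusted p = 0.014), for Amd2 (-2.45 ± 0.58, adjusted p = 0.010) and for Azin1 (1.18 ± 0.33, adjusted p = 0.026), 3 of 10 genes where 8.58% of all tested genes were called. The Azin1 difference was not called without IRIGFRlox 1 (adjusted p = 0.066), IRIGFRlox 2 (0.068) or IGFRlox 2 (0.063). Against MIRKO, 0 of the 10 changes were called as different, and 0 of all tested genes were, although 3 of the 10 had an unadjusted p under 0.05. For Amd1, the MIGIRKO change minus that of MIRKO was -2.38 ± 0.72 (adjusted p = 0.25), with DESeq2 calling 1 of the 10 (Amd1, adjusted p = 0.049). Without MIRKO 4 it was -2.70 (adjusted p = 0.044), and without MIRKO 4 and MIGIRKO 6 it was -2.98 for Amd1 (adjusted p = 0.0093) and -2.54 for Amd2 (adjusted p = 0.0038).

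Amd1 and Smox also moved together between libraries of the same genotype. After each group mean was taken off, their log2 CPM correlated over the 34 libraries with Pearson r = 0.787 (permutation p = 9.0e-05, adjusted over the 45 pairs of the 10 genes 0.0020) and Spearman rho = 0.703 (permutation p = 2.3e-04, adjusted 0.0052). The correlation was 0.694 without the 2 libraries farthest from the Amd1 median, 0.824 with the runs taken off as well, and 0.746 without MIRKO 4 and MIGIRKO 6. Amd1 and Sms gave r = 0.576 (permutation p = 0.0013, adjusted 0.014), which fell to 0.438 without the 2 farthest libraries, and rho = 0.455 (permutation p = 0.014, adjusted 0.12). Amd1 and Odc1 gave r = 0.504 (permutation p = 0.018, adjusted 0.10), rho = 0.506 (permutation p = 0.012, adjusted 0.12) and r = 0.439 without the 2 farthest libraries. The r between Amd1 and Odc1 was 0.296 without MIRKO 4 and MIGIRKO 6. Between Amd1 and Amd2 r was 0.867, which shared reads can raise. The other pairs under an adjusted p of 0.05 by Pearson r were Amd2 with Smox (r = 0.712, permutation p = 0.0010, adjusted 0.014), Amd2 with Sms (r = 0.542, permutation p = 0.0034, adjusted 0.030) and Oaz2 with Azin1 (r = -0.503, permutation p = 0.0066, adjusted 0.049). Their rho was 0.609 (permutation p = 0.0014, adjusted 0.021), 0.416 (0.028, adjusted 0.16) and -0.431 (0.022, adjusted 0.15). By rho, Amd2 with Sms and Oaz2 with Azin1 were thus not under an adjusted p of 0.05. For the same pairs, r without the 2 farthest libraries was 0.690, 0.576 and -0.408.

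**Figure D4:**
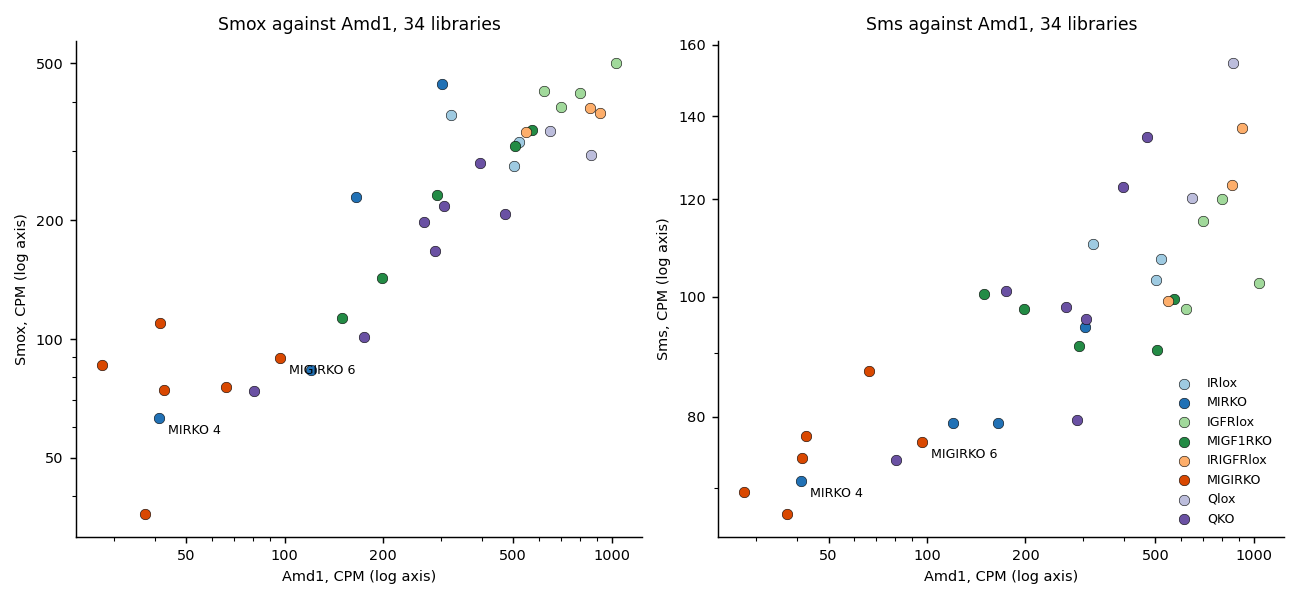
CPM (log axes) of Smox (left) and Sms (right) against Amd1 in the 34 libraries, coloured by group. MIRKO 4, at 41.2 CPM of Amd1 and 63.0 of Smox, lies among the MIGIRKO libraries.

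Pearson correlations within groups over the 34 libraries were also taken across all tested genes, on log2 CPM with a prior count of 2. The polyamine genes themselves, Amd pseudogenes and genes without a symbol were left out of the ranking. Most like Amd1 were Polk, a DNA polymerase that copies past damaged bases (r = 0.922), Prkca, a protein kinase C (0.899), and Gdap1, a protein of the mitochondrial outer membrane (0.878). Most like Odc1 were the actin regulator Diaph1 (0.750), the replication helicase subunit Mcm2 (0.736) and Uhrf1, which helps maintain DNA methylation (0.721). Most like Smox were the kinesin Kif3c (0.832), the Mediator kinase Cdk19 (0.821) and Phka1, a subunit of muscle phosphorylase kinase (0.798). In MIGIRKO, Polk changed by -1.48 ± 0.28 (edgeR adjusted p = 2.0e-04), Prkca by -1.59 ± 0.26 (2.8e-05) and Gdap1 by -2.50 ± 0.45 (1.2e-04). Of all tested genes, 16.7% were called as lower there. Changes of the genes most like Odc1 and Smox are not given.

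The genes around the pathway were counted from lists of known enzymes, carriers and regulators, which were written with earlier results of these data known. In MIGIRKO, where 33.7% of all tested genes were called, 17.0% as higher and 16.7% as lower, counts in lists this short do not set a list apart. Methionine salvage recycles the methylthioadenosine that Srm and Sms release, and 2 of its 5 tested genes fell in MIGIRKO while 0 rose (median log2 change of the 5 -0.21). Adi1, one of its last enzymes, was at 74.8 to 92.0 CPM in IRIGFRlox and at 29.3 to 44.8 in MIGIRKO (-1.19 ± 0.14, edgeR adjusted p = 3.3e-07). Apip, an earlier enzyme of the same route, fell by 0.86 ± 0.25 (adjusted p = 0.0094), and was not called with library totals (-0.37, adjusted p = 0.19). Of the genes that supply or use ornithine, 2 of 6 fell and 0 rose, while the median change of the 6 was 0.72, since the other 4 had positive changes that were not called. Oat, the mitochondrial ornithine aminotransferase, was at 263 to 405 CPM in IRIGFRlox and at 116 to 169 in MIGIRKO (-1.18 ± 0.20, adjusted p = 3.6e-05). The mitochondrial ornithine carrier Slc25a15 fell by 0.40 ± 0.15 (adjusted p = 0.045), and with library totals it had the other sign (0.097, adjusted p = 0.63). Of the S-adenosylmethionine supply genes, 0 of 7 were called, and Mat2b, a subunit of the synthetase, had the smallest adjusted p (-0.26 ± 0.12, adjusted p = 0.10).

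Of 4 genes that make or carry hypusine, the spermidine-derived residue of eIF5A, Eif5a itself fell slightly in MIGIRKO (-0.38 ± 0.15, edgeR adjusted p = 0.049), again with the other sign under library totals (0.12, adjusted p = 0.48). Of 10 transport genes tested, 2 fell and 3 rose. Atp13a5, a P-type ATPase of the family that holds the lysosomal polyamine exporter, went from 6.11 to 16.9 CPM in IRIGFRlox to 1.01 to 2.73 in MIGIRKO (-2.90 ± 0.35, adjusted p = 3.6e-07). The heparan sulphate carrier Gpc1 fell by 0.54 ± 0.15 (adjusted p = 0.0046, and -0.052 with adjusted p = 0.76 under library totals), and the organic cation exporter Slc47a1 rose by 1.45 ± 0.34 (adjusted p = 0.0017). Of 3 further polyamine enzymes and regulators tested (Paox, Sat2 and Azin2), 0 were called, and Azin2 had the smallest adjusted p (-0.45 ± 0.32, adjusted p = 0.27). Of 10 tested regulators known to act on polyamine genes, 3 rose and 0 fell. Myc, a transcriptional activator of Odc1, was at 1.98 to 3.64 CPM in IRIGFRlox and at 7.61 to 24.9 in MIGIRKO (2.22 ± 0.38, adjusted p = 5.4e-05). Cdkn1a, which halts the cell cycle, rose by 1.50 ± 0.38 (adjusted p = 0.0034), and Nfe2l2, a transcription factor of the oxidative stress response, rose by 0.69 ± 0.19 (adjusted p = 0.0065). Each companion gene named as changed in MIGIRKO was still called without MIRKO 4 and MIGIRKO 6, with Eif5a at -0.44 (adjusted p = 0.019) and Slc25a15 at -0.44 (adjusted p = 0.031).

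In the other knockouts, Cdkn1a in MIRKO (1.69 ± 0.41, edgeR adjusted p = 0.035) was the 1 called gene of these 7 lists, and its call was lost without MIRKO 4 and MIGIRKO 6 (1.04, adjusted p = 0.21). In MIGF1RKO and QKO, 0 were called. The QKO change lay above the MIGIRKO change for Adi1 (0.94 ± 0.22, adjusted p = 0.012), Oat (1.08 ± 0.31, adjusted p = 0.038) and Atp13a5 (2.50 ± 0.58, adjusted p = 0.011). The MIGIRKO change lay below the MIGF1RKO change for Adi1 (-0.85 ± 0.20, adjusted p = 0.0095), Apip (-1.15 ± 0.36, adjusted p = 0.043) and Atp13a5 (-1.64 ± 0.51, adjusted p = 0.040). It lay above it for Myc (1.82 ± 0.54, adjusted p = 0.032) and for Slc3a2, a subunit of amino acid transporters (1.02 ± 0.25, adjusted p = 0.010). With library totals, Adi1 (adjusted p = 0.10) and Oat (0.12) were no longer called for QKO against MIGIRKO, nor Adi1 (0.091), Apip (0.12) and Atp13a5 (0.079) for MIGIRKO against MIGF1RKO, in edgeR fits.

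**Figure D5:**
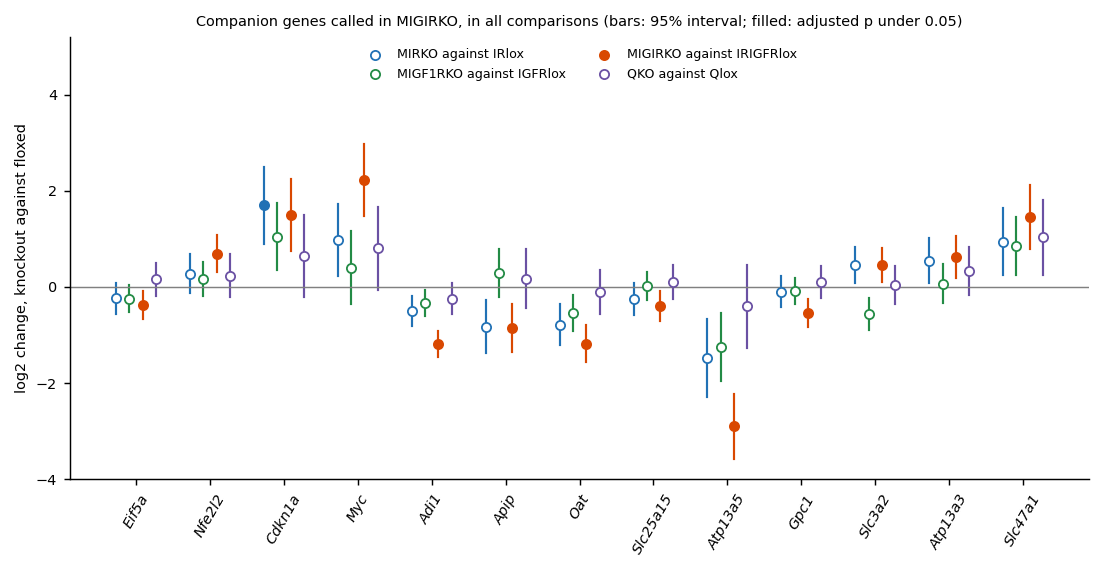
Log2 change with 95% interval of the 13 companion genes called in MIGIRKO, in the 4 knockouts against their floxed controls, where a filled point has an edgeR adjusted p under 0.05. Atp13a5 lies lowest in MIGIRKO, and Myc highest.

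RNA of marker genes for muscle fibers, for denervated or embryonic muscle and for other cell types differed along with these changes. In MIGIRKO against IRIGFRlox, 5 of 8 muscle fiber markers fell, and their summed level was 63632 to 107842 CPM beside 181964 to 203534. Markers that rose were 9 of 10 for denervation and embryonic muscle (summed 275 to 1084 CPM beside 143 to 158), 7 of 7 for adipocytes (397 to 1370 beside 165 to 180) and 8 of 8 for macrophages and other immune cells (552 to 1550 beside 163 to 244). So did 5 of 7 Schwann cell markers (376 to 718 beside 184 to 286), 4 of 6 fibroblast markers (4671 to 8501 beside 2621 to 5867) and 2 of 4 satellite cell markers (33.1 to 44.6 beside 13.0 to 14.5), whereas 0 of 6 endothelial markers were called (259 to 369 beside 319 to 422). Schwann cell sums in the other floxed groups overlapped with MIGIRKO, at 345 to 547 CPM (IRlox), 308 to 636 (IGFRlox) and 440 to 702 (Qlox). IRIGFRlox was thus the lowest floxed group for these markers. Fibroblast sums in those groups also overlapped with MIGIRKO, at 6170 to 7384, 3110 to 6170 and 2356 to 5265 CPM. Adipocyte sums overlapped with MIGIRKO in IRlox (348 to 510 CPM), whereas those of IGFRlox (135 to 264) and Qlox (175 to 223) lay below. In MIRKO, muscle fiber markers summed to 84384 to 145307 CPM beside 165108 to 187792 in IRlox, with 0 of 8 called. Its immune markers summed to 502 to 1133 CPM beside 287 to 358, with 0 of 8 called. Its endothelial markers summed to 263 to 352 CPM beside 398 to 422, with 0 of 6 called. Its denervation markers summed to 243 to 1051 CPM beside 123 to 151, with MIRKO 4 the highest, and 4 of 10 rose, or 0 of 10 without MIRKO 4 and MIGIRKO 6. In MIGF1RKO, 1 of 10 denervation markers rose (181 to 374 CPM beside 135 to 144 in IGFRlox) and 0 of the other markers were called. In QKO, 0 were called, and the summed level was 112067 to 218167 CPM for muscle fiber markers beside 176118 to 186590 in Qlox, 166 to 445 beside 169 to 175 for denervation markers and 245 to 2873 beside 182 to 237 for immune markers, with QKO 6 the highest. Chrng, a denervation marker, was at 0 in every Qlox library. No other marker was at 0 in every library of a group. The part of these markers' cells in the changes of the polyamine genes was not tested.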

How the data were processed

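RNA-seq counts were analysed for 34 libraries in 8 groups taken from the labels. Nothing says that each library is a separate mouse, so p-values measure the spread between these libraries, which may in part be technical. The authors deposited raw counts per Ensembl gene. Per the submitters' processing notes, STAR, featureCounts and the GRCm38 build were used, and strand and multi-mapping settings are not given in the sources used here. All 34 value columns were used. Of 46071 gene IDs, 45229 had a symbol in the GENCODE M21 annotation.

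Genes were filtered with filterByExpr over the 8 groups, scaled by TMM and fitted with 1 mean per group in edgeR 4.0.16 (quasi-likelihood, robust, R 4.3.3). P-values were adjusted by Benjamini-Hochberg across the 13646 tested genes, with 0.05 as the threshold of a call. SE was worked back from the F statistic, errors of CPM are SD, and 95% intervals are 1.96 SE to each side. Correlations between polyamine genes used the log2 of CPM plus 0.5, with 100000 permutations within groups. Correlations with other genes and between libraries used log2 CPM with a prior count of 2, without permutations. The edgeR fit was also run on simulated counts with known changes, which held no colony or run differences. Its outcome there is not given. Alternatives used DESeq2 1.42.0, limma 3.58.1, other scalings, filters, controls and left-out libraries.

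The polyamine genes, the companion lists and the tests were chosen with earlier results of these data known. By rule, all polyamine genes are named, and of each companion list up to 3 called genes per comparison in order of adjusted p (where a list had no call, its top gene, given for MIGIRKO only). For Amd1, Odc1 and Smox, the 3 genes most correlated within groups are named, with polyamine genes, Amd pseudogenes and genes without a symbol left aside. 1 gene of the regulator list is not reported here.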

Additional observations from a re-analysis of the deposited data

Results flagged for a closer look

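Of 50 pairs of a polyamine gene and a group with 4 or more libraries, 4 held a library far from the rest of its group, where chance gives about 1 in 20. Amd2 in MIGIRKO 6 was 4.93 CPM and Srm in the same library 10.4 CPM, each the highest of its group. In MIRKO 2, Srm was lowest at 2.96 CPM and Oaz2 highest at 151 CPM.

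The change differed between genotypes by a test of the difference itself in 4 cases. Amd2 fell less in QKO (-1.33, not called) than in MIGIRKO (-3.51), a difference of 2.18 on the log2 scale (edgeR adjusted p = 0.046). For this comparison 5.76% of all tested genes were called, and the Amd2 call was lost in 18 of 28 alternatives. Between MIGIRKO and MIGF1RKO the change differed by -2.69 for Amd1, by -2.45 for Amd2 and by 1.18 for Azin1 (edgeR adjusted p = 0.014, 0.010 and 0.026). There 8.58% of all tested genes were called, and the Azin1 call was lost in 5 of 28 alternatives.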

How the results depend on the processing

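No paired analysis was possible because no label ties a knockout library to one of its littermates. Amd1, Amd2, Smox, Sat1 and Azin1 stayed called in MIGIRKO under all 20 alternatives run for that comparison, with Amd1 between -4.17 and -3.40, and Sms under 19 of 20. Of 1810 values of single polyamine genes under alternatives, 1686 kept direction and side of the threshold, 40 lost a call, 37 gained one and 47 changed sign. The cause of these shifts was not tested. Depth limits Amd2 and Srm most, since they hold few counts.

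Numbers of polyamine genes called that moved by over 1.5 times were as follows. For the QKO minus MIGIRKO difference (1 gene called) they were 2 with DESeq2, 2 with library totals, 0 with no filter, 2 without MIRKO 4 and MIGIRKO 6, and 2 without QKO 5 and QKO 6. For the MIGIRKO minus MIRKO difference (0 called) they were 1 with DESeq2 and 2 without MIRKO 4 and MIGIRKO 6. For MIRKO (1 called) they were 0 with no filter, with runs as a block, with the compared groups only or without MIRKO 4 and MIGIRKO 6, and 5 with all 12 floxed libraries as control. For MIGF1RKO (1 called) they were 0 with library totals, and 2 with the compared groups only or without MIRKO 4 and MIGIRKO 6. For QKO (1 called) they were 5 with all 12 floxed libraries and 2 without MIRKO 4 and MIGIRKO 6. For the MIGIRKO minus MIGF1RKO difference (3 called) they were 5 with library totals and 5 with the compared groups only.

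With each library left out in turn, the number called ran from 0 to 2 for MIRKO, 0 to 1 for MIGF1RKO, 6 to 7 for MIGIRKO, 0 to 1 for QKO, 0 to 3 for QKO minus MIGIRKO, 0 to 1 for MIGIRKO minus MIRKO and 2 to 3 for MIGIRKO minus MIGF1RKO, and it was 0 for the floxed groups. Where a group then held 1 library, its spread was taken from the other groups. Over all tested genes, the number called ran from 9 to 2830 for MIRKO (170 as reported), 30 to 244 for MIGF1RKO (84), 3109 to 7002 for MIGIRKO (4603), 21 to 1084 for QKO (69), 113 to 1404 for QKO minus MIGIRKO (786), 0 to 457 for MIGIRKO minus MIRKO (0), 585 to 2167 for MIGIRKO minus MIGF1RKO (1171) and 15 to 119 for the floxed groups (36). Library totals called 6314 genes higher and 688 lower in MIGIRKO.

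Changes of sign, counted at any size, concerned polyamine genes that were not called on either side. With library totals, Srm was 0.067 and Oaz2 0.081 in MIRKO, Azin1 0.0010 in MIGF1RKO, and Oaz2 0.24, Oaz1 0.44 and Odc1 0.047 in MIGIRKO. For QKO minus MIGIRKO, Srm was then -0.19, Oaz2 -0.36, Oaz1 -0.33 and Sms -0.22. For MIGIRKO minus MIRKO, Oaz2 was 0.16, Oaz1 0.027 and Odc1 0.12, and for MIGIRKO minus MIGF1RKO Oaz1 was 0.076. With runs as a block, Oaz2 was 0.073 in MIRKO, Azin1 0.044 in MIGF1RKO, Oaz1 0.015 in MIGIRKO and -0.20 in QKO. For QKO minus MIGIRKO, Srm was then -0.23, Oaz2 -0.096, Oaz1 -0.22 and Azin1 0.042, and for MIGIRKO minus MIRKO Odc1 was 0.053. With all 12 floxed libraries as control, Srm was 0.21 in MIRKO, Oaz1 -0.072 and Azin1 0.14 in MIGF1RKO, Oaz1 0.14 in MIGIRKO and Oaz2 0.076 in QKO. Oaz1 was -0.087 in MIRKO, 0.034 in MIGIRKO and 0.12 for MIGIRKO minus MIRKO without MIRKO 4 and MIGIRKO 6. With each library left out in turn, Oaz2 ran from -0.37 to 0.0022 and Oaz1 from -0.087 to 0.25 in MIRKO, Azin1 from -0.23 to 0.088 in MIGF1RKO, Oaz1 from -0.11 to 0.051 in MIGIRKO and Oaz1 from -0.032 to 0.13 in QKO. For QKO minus MIGIRKO, Srm ran from -0.22 to 0.49 and Oaz2 from -0.060 to 0.20. For MIGIRKO minus MIRKO, Oaz2 ran from -0.25 to 0.12, Oaz1 from -0.31 to 0.032 and Odc1 from -0.29 to 0.13.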
